A study of Mus musculus with 35 samples.

Results

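Urolithin A was compared with vehicle in the hippocampus of 3xTgAD mice, a mouse model of Alzheimer disease. All 15 mice labelled 3xTgAD without a Polb deletion were taken, of 35 mice in the series, and described across all 760 genes of a NanoString panel. AD_UA denotes the 7 mice given Urolithin A (4 males, 3 females) and AD_veh the 8 given vehicle (4 males, 4 females), each followed below by the replicate number of its label. Both groups carried Tg(APPSwe,tauP301)L1Lfa, which holds mutant human APP and tau transgenes, and a further mutant allele, on a C57BL6/J background, and all were 18 months old. Treated mice received 200 mg/kg per day by gavage over 5 months, and RNA came from 5 mg of tissue. The sources used here do not give the composition of the vehicle, the promoter of the transgenes or whether mice shared litters or cages. The other 20 mice, which entered the fit to share 1 estimate of the spread, were vehicle wild types (C57BL6/J) and 3xTgAD mice with PolB +/-, given vehicle or Urolithin A. No treated wild-type group was among the 35, so an effect of the compound outside the transgenic background could not be measured.

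Urolithin A is made by gut bacteria from ellagitannins, polyphenols of pomegranate and walnut, and is known to stimulate mitophagy, the removal of damaged mitochondria by autophagy. In that process a damaged mitochondrion is marked with ubiquitin, adaptors tether it to a forming autophagosome through LC3 and GABARAP proteins, and lysosomes digest it. In Alzheimer disease mitochondria of hippocampal neurons are impaired, synapses are lost, and microglia and astrocytes around plaques turn on complement and lipid-handling genes. The values below follow that order: the leading genes, the mitochondrial and degradative machinery, synapses, myelin and glia, and the amyloid and tau genes.

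Values are log2 of normalized barcode counts. The median over the 760 genes lay between 8.60 and 9.12 in the 15 mice. The sources used here do not give the counts behind the values, so depth is unknown and precision was judged from the spread between mice. Of the 15 mice, 3 stood apart from the rest, all male, and they are named before the results because many values rest on them. Adora2a, an adenosine receptor gene and a marker of striatal neurons, was at 9.85 in AD_veh 2, 8.60 in AD_UA 3 and 7.13 in AD_UA 8, against 1.90 to 4.23 in the other 12. Pde1b, a calmodulin-dependent phosphodiesterase enriched in striatum, was at 11.27, 10.24 and 9.73 in the same mice, against 7.94 to 8.62. These were the only measured members of a list of striatum-enriched genes, and none of the lists of hippocampal neuron, choroid plexus and blood genes was on the panel, so the hippocampal label could not be checked against markers. On the first principal component of the 15 mice, with 44.4% of the variance, AD_veh 2 had the highest score (18.6) and the treated mice AD_UA 3 and AD_UA 8 had the lowest (-9.73 and -9.77). On the second component, with 23.3%, all 3 had the highest scores (11.0, 9.77 and 7.91). Most differences are given with all 15 mice and without these 3 (5 against 7 mice), and the part of tissue makeup in the results was not tested.

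**Figure D1:**
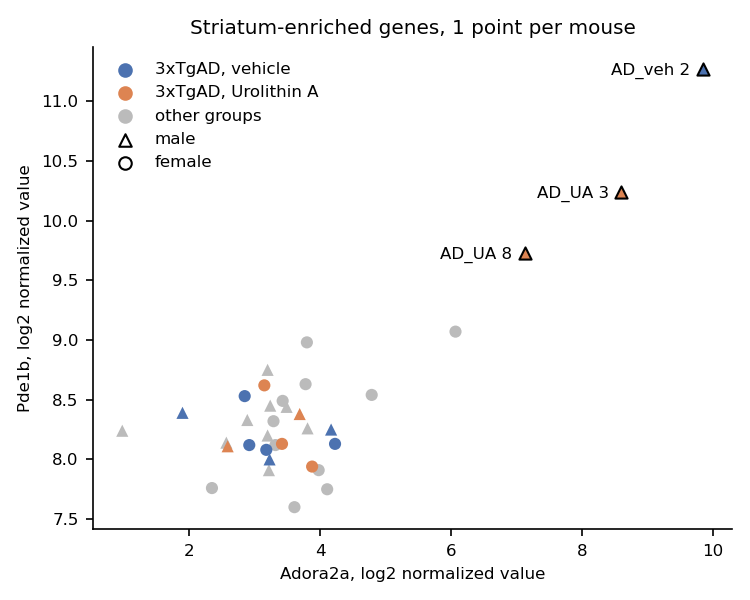
Log2 normalized values of Adora2a (horizontal axis) and Pde1b (vertical axis), 1 point for each of the 35 mice, coloured by group with males as triangles and females as circles. The outlined points of AD_veh 2, AD_UA 3 and AD_UA 8 lie at 7.13 or more on Adora2a and 9.73 or more on Pde1b, and the other 12 mice of the comparison lie together at or below 4.23 and 8.62.

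With all 15 mice, 0 of 760 genes passed the threshold of an adjusted p of 0.05 (limma, Benjamini-Hochberg over 760 genes, smallest adjusted p = 0.393), a called share of 0%. At an unadjusted p below 0.05 there were 71 genes, 9.34% of the panel, of which 30 (3.95%) had a higher mean with Urolithin A and 41 (5.39%) a lower one. In 0 genes (0%) did the values of the treated mice lie wholly outside those of the vehicle mice. Over the whole panel 271 genes were higher and 489 lower, with a median log2 difference of -0.05. Subtracting each mouse's own median turned this split to 394 and 366. In that setting 66 genes had an unadjusted p below 0.05, 33 higher and 33 lower, and 51 of them were among the 71 with the same sign. The 95% confidence interval of a gene's difference reached a median of 0.283 to either side, and for 476 genes (62.6%) it lay wholly between -0.5 and 0.5. In size, 28 genes differed by more than 0.5 and 3 by more than 1. The count of 71 depended on single mice. Leaving out AD_UA 3 gave 32, AD_UA 8 gave 37, AD_UA 7 gave 41 and AD_UA 1 gave 108. Without AD_veh 2, AD_UA 3 and AD_UA 8 together, 0 genes passed and 18 (2.37%) reached an unadjusted p below 0.05 (6 higher and 12 lower). With each mouse's own median subtracted as well, it was 29, of which 5 were higher and 24 lower, and the split of the panel turned from 399 higher and 361 lower to 315 and 445. Of the 18, 8 were among the 71 with the same sign. The sign of the difference turned in 278 of the 760 genes.

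Those 8 genes are described first. Fam171a1, which encodes a single-pass membrane protein, had the smallest p of the panel. Its lowest, median and highest values were 8.73, 8.95 and 9.09 in the vehicle mice and 8.33, 8.58 and 8.89 in the treated mice. All 7 treated mice lay below the vehicle mean, though AD_UA 1 overlapped the vehicle range, as the plot of leading genes shows. The log2 difference was -0.34 (SE 0.09, 95% interval -0.52 to -0.16, 0.792-fold, adjusted p = 0.393), and -0.34 without the 3 mice. It was -0.28 in males and -0.42 in females.

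Wscd2, which encodes a WSC domain sulfotransferase, ran at 8.72, 9.015 and 9.22 in the vehicle mice and 7.94, 8.72 and 9.07 in the treated mice, in the same order. Only AD_UA 1 was above the vehicle mean. The difference was -0.43 (SE 0.13, 0.743-fold, adjusted p = 0.472) and -0.44 without the 3 mice. Tor1a, the gene of torsin A, an ATPase of the endoplasmic reticulum and nuclear envelope that is mutated in early-onset dystonia, ran at 8.23, 8.57 and 8.78 in the vehicle mice and 8.07, 8.32 and 8.61 in the treated mice. Its difference was -0.25 (SE 0.08, adjusted p = 0.472) and -0.21 without the 3 mice. For both genes the difference without the 3 mice was within 1 SE of that with them.

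Wls, which carries Wnt proteins to the cell surface for secretion, was the member of this set with a higher mean in treated mice. Its values were 8.36, 9.025 and 9.63 in the vehicle mice and 9.17, 9.31 and 9.56 in the treated mice. The highest vehicle value, 9.63, belonged to AD_veh 2. The difference was 0.34 (SE 0.15, 1.27-fold, adjusted p = 0.483), and 0.46 without the 3 mice, where the lowest treated mouse (9.28) lay above the highest vehicle mouse (9.27). Only Ptbp1, the splicing repressor PTB, shared that separation (0.08 with all mice, 0.29 without the 3), and these 2 genes are 0.263% of the panel.

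Gja1, which encodes connexin 43, the main gap junction protein of astrocytes, had the second smallest p. The vehicle mice were close together and the treated mice were spread (lowest, median and highest 11.11, 11.31 and 11.34 with vehicle, 10.36, 10.91 and 11.35 with Urolithin A). The 2 lowest treated values, 10.36 and 10.64, were those of AD_UA 3 and AD_UA 8. The difference was -0.35 (SE 0.10, 0.787-fold, adjusted p = 0.393) with all mice and -0.18 without the 3. The other 3 genes of the set were lower as well. Pde1c, a calmodulin-dependent cyclic nucleotide phosphodiesterase, had the most negative difference of the panel at -0.82 (SE 0.33, -0.65 without the 3 mice), and its highest vehicle value, 8.45, was again that of AD_veh 2. Nhsl1, a relative of the Nance-Horan syndrome gene, was at -0.54 (-0.46 without them), and Zbtb33, the methyl-CpG binding repressor Kaiso, at -0.21 (-0.22). These 8 genes were picked out after their values were seen, for an unadjusted p below 0.05 and the same sign in both settings. That their differences held without the 3 mice is therefore part of the choice.

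**Figure D2:**
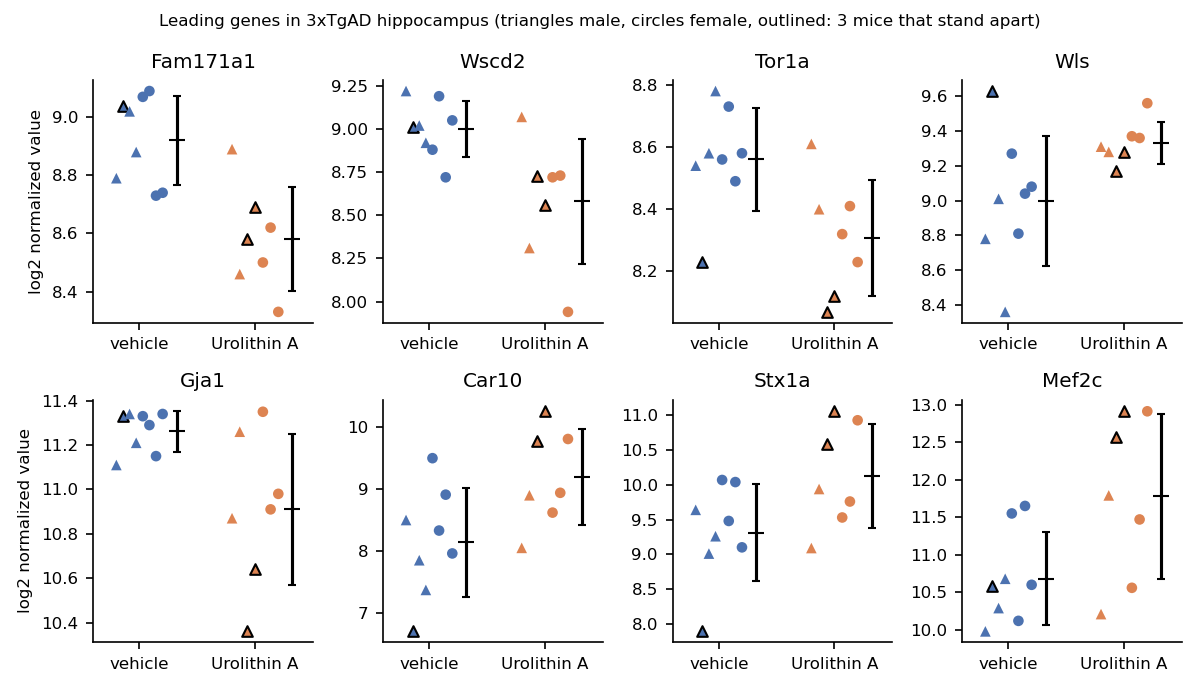
Log2 normalized values of 8 genes (vertical axes, which differ between panels and do not start at 0) in AD_veh and AD_UA mice (horizontal axes), 1 point per mouse, with the mean and SD of each group beside the points. Males are triangles, females circles, and the 3 mice that stand apart are outlined. For Fam171a1, Wscd2 and Tor1a the treated mice are lower as a group whether or not the outlined points are counted, and for Car10 and Stx1a the outlined points are at the ends of both groups.

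The largest positive differences were smaller without the 3 mice. The 5 largest were C130074G19Rik (1.16, SE 0.37), Mef2c (1.12, SE 0.44), Car10 (1.07, SE 0.34), Gfra2 (0.90, SE 0.35) and Stx1a (0.84, SE 0.32), with adjusted p of 0.472 each. Mef2c encodes a transcription factor of neuronal activity and lies at an Alzheimer risk locus, Car10 a catalytically inactive carbonic anhydrase relative that binds neurexins, Gfra2 the neurturin receptor, and Stx1a syntaxin 1A of the vesicle fusion complex. In all 5 the 3 highest treated mice were AD_UA 3, AD_UA 7 and AD_UA 8. Car10, for example, was at 9.78, 9.81 and 10.27 in those mice, from 8.05 to 8.94 in the other 4 treated mice, and from 6.70 in AD_veh 2 to 9.50 among the vehicle mice. Mef2c ran at 9.98, 10.59 and 11.65 in the vehicle mice and 10.21, 11.79 and 12.92 in the treated mice. Without AD_veh 2, AD_UA 3 and AD_UA 8 the differences were 0.75, 0.68, 0.51, 0.35 and 0.33, in the order named, and unadjusted p-values of limma were from 0.0572 to 0.319.

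The other higher genes with the smallest p had smaller differences. They were Map3k9, a mixed lineage kinase (0.56, 0.37 without the 3 mice), 6430548M08Rik (0.41, 0.24), Sestd1, a phospholipid-binding spectrin repeat protein (0.28, 0.14), Slc6a17, a vesicular amino acid transporter (0.36, 0.17), Lnx1, a ubiquitin ligase (0.41, 0.19), Tbc1d9 (0.48, 0.39) and Clstn3, calsyntenin 3 of the synaptic membrane (0.27, 0.11). For 6430548M08Rik, Sestd1, Slc6a17 and Lnx1 the vehicle mean was exceeded by all 7 treated mice. Lower genes with small p were Psmg1, a proteasome assembly chaperone (-0.17, -0.12 without the 3 mice), Kctd12, an auxiliary subunit of GABA-B receptors (-0.52, -0.29), Amer2, a regulator of Wnt signalling (-0.23, -0.14), Mfsd8, the lysosomal membrane protein lost in a neuronal ceroid lipofuscinosis (-0.24, -0.16), Aff1, a scaffold of transcription elongation (-0.35, -0.24), Gss, glutathione synthetase (-0.34, -0.14), and Prex2, an activator of the GTPase Rac (-0.25, -0.10). All of these kept their sign without the 3 mice, and each had an adjusted p of 0.472 with all mice (limma, n = 7 and 8).

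Genes of autophagy and mitophagy, the process Urolithin A is known for, had a median close to that of the panel. Of the 7 measured, 2 had a higher mean and 5 a lower one, with a median log2 difference of -0.06 (-0.02 without the 3 mice), and 2 (28.6%) had an unadjusted p below 0.05, against 9.34% of the panel. Bcl2l1, which encodes BCL-XL, a survival protein of the mitochondrial outer membrane, ran at 9.07, 9.225 and 9.30 in the vehicle mice and 8.91, 8.99 and 9.20 in the treated mice. Of the treated mice AD_UA 1 alone reached the vehicle range, at 9.20, and the difference was -0.20 (SE 0.07, 0.872-fold, adjusted p = 0.472) and -0.15 without the 3 mice. Prkag1, the gamma 1 subunit of the energy sensor AMPK, was at -0.15 (SE 0.07, -0.13 without them). Tfeb, the master transcription factor of lysosomal and autophagy genes, was at -0.21 (SE 0.22, -0.02 without them). Gabarapl1, an LC3 family protein of the autophagosome membrane, was at 0.05 (SE 0.08, 0.00 without them), and its values were 11.72, 11.885 and 11.95 in the vehicle mice and 11.79, 11.88 and 12.14 in the treated mice. Its 95% interval was -0.10 to 0.21. Bcl2, the anti-apoptotic protein that also restrains beclin 1, was at 0.09 (SE 0.15, 0.14 without them).

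Respiratory chain genes had a median like that of the panel too. Of 10 measured genes of oxidative phosphorylation 3 had a higher mean and 7 a lower one, with a median of -0.05 (-0.05 without the 3 mice), against -0.05 for the panel. Cox7a2l, a factor of respiratory supercomplex assembly, ran at 11.08, 11.235 and 11.62 in the vehicle mice and 10.94, 11.12 and 11.25 in the treated mice. It was at -0.14 (SE 0.06, adjusted p = 0.483, -0.09 without them). Cox6c, a subunit of complex IV, was at -0.20 (SE 0.19, -0.33 without the 3), and Atp5j2, of the ATP synthase, at -0.11 (SE 0.10, -0.12). Ndufa5, of complex I, was at -0.25 (SE 0.29) and -0.28 without the 3. Its lowest vehicle value, 5.45, was that of AD_veh 2, with the other vehicle mice at 7.61 or more, and without that mouse alone the difference was -0.56 (adjusted p = 0.415, limma). Among the 4 genes of mitochondrial dynamics and metabolism, Glud1, the matrix enzyme glutamate dehydrogenase, was lower in 6 of 7 treated mice than the vehicle mean, at -0.16 (SE 0.07, 0.895-fold, adjusted p = 0.472, -0.11 without the 3 mice). Its values were 11.35, 11.45 and 11.65 in the vehicle mice and 11.03, 11.31 and 11.50 in the treated mice. Mfn1, which fuses outer membranes, was at -0.06 (SE 0.09, -0.02 without the 3), Idh2, the matrix isocitrate dehydrogenase, at -0.17 (SE 0.17) and Got1, a cytosolic aminotransferase, at 0.06 (SE 0.09). Idh2 and Got1 turned sign without the 3 mice, to 0.07 and -0.02.

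In the lists of lysosome, of proteasome and protein folding, and of ubiquitin genes, 1 gene, Psmg1, had an unadjusted p below 0.05. Mfsd8 and Lnx1, given above among the genes with the smallest p, are not members of these lists. Of 14 lysosomal genes 4 had a higher mean and 10 a lower one, with a median log2 difference of -0.11, and 0 had an unadjusted p below 0.05. Without the 3 mice 12 were higher and the median was 0.09. Atp6ap2, a subunit of the proton pump that acidifies lysosomes, was at 0.14 (SE 0.09, 0.03 without the 3), Acp2, lysosomal acid phosphatase, at -0.09 (SE 0.06, -0.08), Abca2, a lipid transporter of oligodendrocyte lysosomes, at -0.17 (SE 0.14, 0.00), and Npc2, which exports cholesterol from lysosomes, at -0.21 (SE 0.20, 0.01). Of 24 genes of the proteasome and protein folding 6 had a higher mean and 18 a lower one, with a median log2 difference of -0.05 (-0.05 without the 3 mice), and Psmg1 was 4.17% of them, against 9.34% of the panel. Cct3, a subunit of the chaperonin TRiC, was at -0.09 (SE 0.05, -0.06 without the 3), Hspa2, an HSP70 chaperone, at -0.27 (SE 0.17, -0.11), and Hspb8, a small heat shock protein of chaperone-assisted autophagy, at -0.51 (SE 0.31) with all mice and -0.03 without the 3. Of 13 genes of ubiquitin and the related modifier NEDD8, 1 had a higher mean and 12 a lower one, with a median log2 difference of -0.10 (-0.03 without the 3, with 4 higher and 9 lower), and 0 had an unadjusted p below 0.05.

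Presynaptic genes had higher means in treated mice, and this rested on the mice that stand apart. Of 26 measured, 24 had a higher mean and 2 a lower one, with a median log2 difference of 0.13, against -0.05 for the panel, and 2 (7.69%) had an unadjusted p below 0.05, against 9.34% of the panel. The mean over the 26 genes was 11.37 ± 0.33 (SD, n = 8) with vehicle and 11.52 ± 0.12 (n = 7) with Urolithin A. It was lowest by far in AD_veh 2 (10.64, next lowest vehicle mouse 11.30) and highest in AD_UA 8 (11.76). With the 3 left out, 10 of 26 were higher and the median was -0.04. Stx1a ran at 7.89, 9.37 and 10.07 in the vehicle mice and 9.09, 9.94 and 11.07 in the treated mice, the lowest being AD_veh 2 and the highest AD_UA 8. Syngr1, a vesicle membrane protein, was at 0.26 (SE 0.13, 0.10 without the 3 mice), and Snap91, the clathrin adaptor AP180 of vesicle recycling, at 0.23 (SE 0.12, 0.06).

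On the receiving side of the synapse, of 7 genes 1 had a higher mean and 6 a lower one, with a median log2 difference of -0.07 (-0.11 without the 3 mice). Gphn, gephyrin, the scaffold of inhibitory synapses, lay below the vehicle mean in all 7 treated mice (lowest, median and highest 9.69, 9.775 and 10.03 with vehicle, 9.57, 9.67 and 9.73 with Urolithin A). Its difference was -0.14 (SE 0.06, adjusted p = 0.483, -0.09 without the 3 mice). Dlgap1, a scaffold of excitatory synapses, was at 0.27 with all mice and 0.01 without the 3, with AD_veh 2 at 8.35 and the other vehicle mice at 10.05 or more. Ppp3r1, the regulatory subunit of calcineurin, was at -0.12 (SE 0.11, -0.22 without the 3) and Epha4, an ephrin receptor of dendritic spines, at -0.17 (SE 0.21, -0.11). Of the 5 GABA-related genes 3 had a higher mean and 2 a lower one, with a median log2 difference of 0.22 (0.05 without the 3). Gabbr2, a subunit of the GABA-B receptor, was at 8.32 in AD_veh 2 and at 9.85 or more in the other 7 vehicle mice, with a difference of 0.42 (SE 0.21) that was 0.05 without the 3 mice. The GABA-A receptor subunits Gabrg1 and Gabrd were at -0.31 and 0.35, and -0.23 and 0.12 without them.

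Myelin genes had lower means in treated mice, and this too rested on the 3 mice. Of 42 genes of oligodendrocytes and myelin 1 had a higher mean and 41 a lower one, with a median log2 difference of -0.28, and 3 (7.14%) had an unadjusted p below 0.05, against 9.34% of the panel. In whole tissue fewer cells of a type and less RNA per cell cannot be told apart. The list mean was 9.38 ± 0.59 (SD, n = 8) with vehicle and 9.09 ± 0.41 (n = 7) with Urolithin A, with AD_veh 2 at 10.60 and AD_UA 3 and AD_UA 8 at 8.62 and 8.61, the ends of their groups. When the 3 were left out, 25 of 42 were higher and the median was 0.04. Mbp, myelin basic protein, ran at 11.73, 12.555 and 14.20 in the vehicle mice and 11.66, 12.25 and 12.95 in the treated mice, with a difference of -0.45 (SE 0.36) and -0.02 without the 3. The members with the smallest p were Dock10, a guanine nucleotide exchange factor (-0.57, -0.19 without the 3 mice), Sox8, a transcription factor of oligodendrocyte differentiation (-0.35, -0.07), St18, a zinc finger transcription factor (-0.81, -0.25), and Tppp3, a tubulin-binding protein (-0.61, -0.25). Anln, the actin-binding protein anillin, was at -0.65 (-0.28), and Cachd1, a calcium channel subunit relative outside the list, at -0.74 (-0.45).

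**Figure D3:**
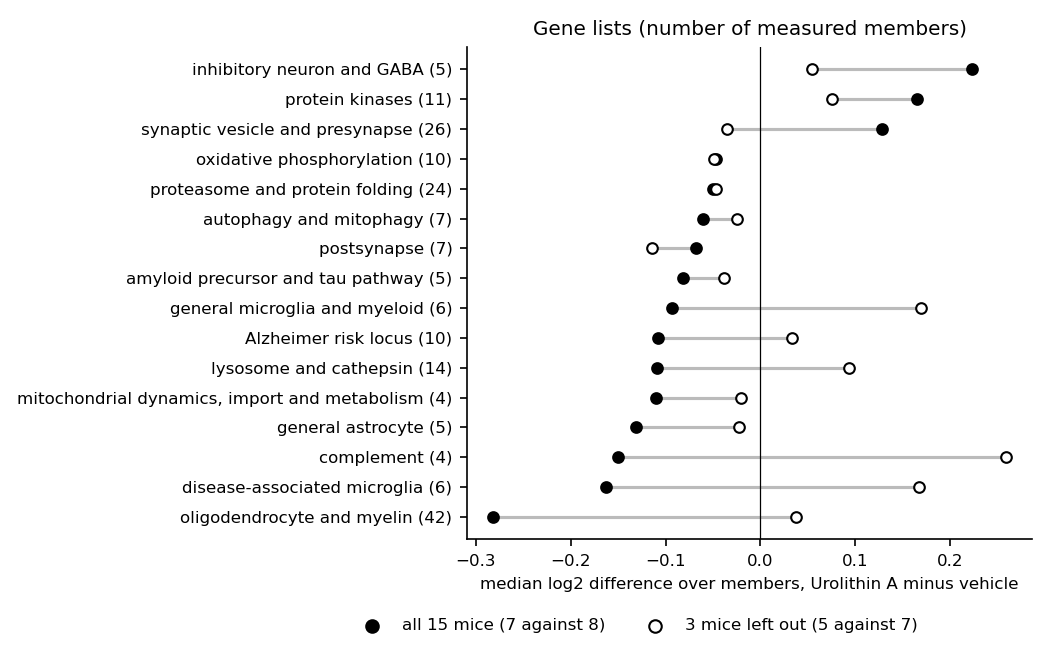
Median log2 difference over the measured members of 16 gene lists (horizontal axis, Urolithin A minus vehicle), 1 row per list with its number of members. Filled points use all 15 mice and open points leave out AD_veh 2, AD_UA 3 and AD_UA 8. The medians of myelin, presynapse, lysosome, complement, Alzheimer risk locus and both microglial lists lie on opposite sides of 0 in the 2 settings.

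Sign changes of this kind were common among the lists. Leaving out the 3 mice turned the sign of the median in 15 of the 31 lists with at least 4 measured members. The 15 lists not plotted there, such as small GTPases, cytoskeleton and extracellular matrix, had medians from -0.12 to 0.17 with all mice and from -0.13 to 0.23 without the 3. Astrocyte genes were lower in 5 of 5 (median -0.13) and in 3 of 5 without the 3 mice (-0.02). Beside Gja1, the members were Mlc1, a membrane protein of astrocyte endfeet (-0.22, -0.02 without the 3), Bmpr1b, a BMP receptor (-0.13, -0.07), Nfia, a transcription factor that sets astrocyte fate (-0.08, 0.01), and Sox9 (-0.03, 0.23).

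Microglial genes had slightly lower means over all mice, and their medians had opposite signs in the 2 sexes. Of 6 disease-associated microglia genes 6 were lower (median -0.16), as were 6 of 6 general microglia genes (-0.09) and 3 of 4 complement genes (-0.15). Without the 3 mice the medians were 0.17, 0.17 and 0.26. Trem2, the microglial receptor for lipids and amyloid at an Alzheimer risk locus, was the 1 member of the 3 lists with an unadjusted p below 0.05. Its values were 4.17, 4.595 and 5.44 in the vehicle mice and 3.05, 4.07 and 4.33 in the treated mice, all treated mice being below the vehicle mean. The difference was -0.71 (SE 0.35, 0.612-fold, adjusted p = 0.520) and -0.61 without the 3 mice. Trem2 was at the low end of the panel's log2 range, where the treatment of background, which is unstated, bears most. The other genes were far from the threshold. Apoe, the lipid carrier, was at -0.29 (SE 0.21), Axl, a receptor for dying cells, at -0.14, Csf1, a microglial growth factor, at -0.19, Cyba, an NADPH oxidase subunit, at -0.31, the Fc receptor gamma chain Fcer1g at -0.15, the lysosomal protein gene Laptm5 at -0.12 and the transporter gene Slco2b1 at -0.07. C1qa, C1qb and C1qc, the 3 chains of the complement starter C1q, were at -0.16, -0.14 and -0.18, and Serping1, the C1 inhibitor, at 0.08. All of these but Trem2 were above 0 without the 3 mice, from 0.04 for Apoe to 0.65 for Serping1.

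In males the microglial medians were below 0 and in females above 0. The median log2 difference over the members was -0.65 in males and 0.52 in females for general microglia, -0.88 and 0.66 for complement, and -0.74 and 0.28 for disease-associated microglia, against -0.09 and 0.00 for the panel. Opposite signs were not particular to these lists. Myelin was at -0.63 and 0.07, cytokine signalling at -0.43 and 0.41 and lysosome at -0.32 and 0.13. Oxidative phosphorylation, at -0.05 and -0.08, had the same sign in both sexes. Tyrobp, the signalling adaptor of Trem2, shows the mice behind the microglial medians. With vehicle it was at 9.59, 10.89, 9.69 and 9.93 in the 4 males and at 8.70, 8.76, 8.83 and 11.42 in the 4 females. With Urolithin A it was at 9.16, 9.50, 8.62 and 8.73 in the males and at 10.33, 10.55 and 9.88 in the females. Every treated male lay below every vehicle male, and the treated females lay above 3 vehicle females and below the fourth, AD_veh 6. C1qa had the same order in females, at 9.23 to 9.54 and 11.76 with vehicle and 10.32 to 11.07 with Urolithin A. How many genes of the panel have such an order within a sex was not counted.

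**Figure D4:**
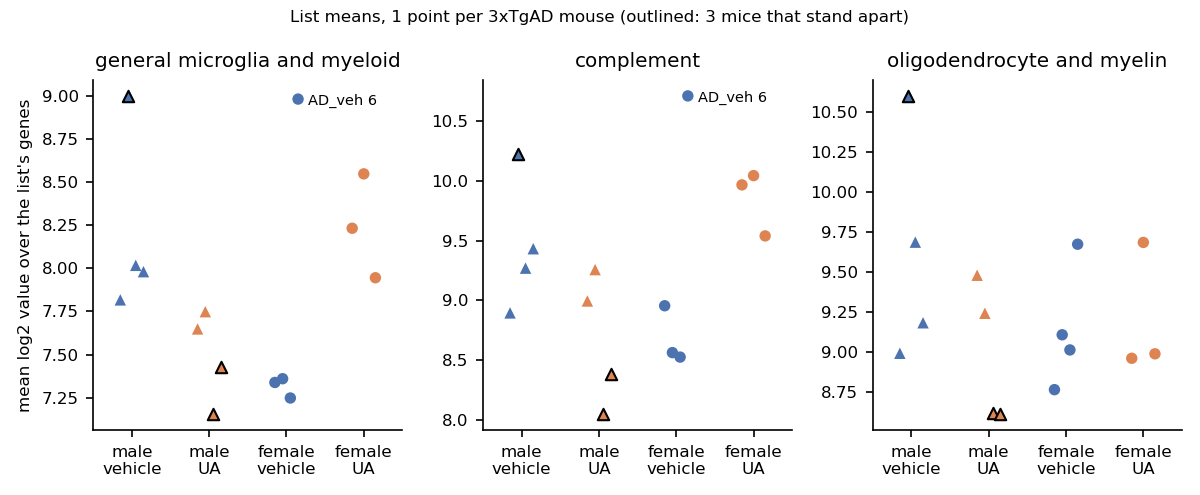
Mean log2 value over the general microglia, complement and myelin lists (vertical axes, which differ between panels and do not start at 0) by sex and treatment (horizontal axes), 1 point per 3xTgAD mouse. The 3 mice that stand apart are outlined, and AD_veh 6, the female vehicle mouse with the highest microglial and complement means among the females, is labelled.

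The difference between the sexes was tested with separate group means for males and females. It passed in 0 of 760 genes (0%, smallest adjusted p = 0.609) and had an unadjusted p below 0.05 in 36 (4.74%), of which 32 had a higher value in females. Tmem165, a Golgi protein, had the smallest p (-0.29 in males, 0.25 in females, adjusted p = 0.609), followed by Tyrobp (-1.02 and 0.83, adjusted p = 0.747) and Arpc1b, an actin nucleation subunit (-0.89 and 0.65, adjusted p = 0.747). For Tmem165 all 4 treated males lay below all 4 vehicle males, and the treated females, at 8.18 to 8.26, above all vehicle females, at 7.83 to 8.07. Tmem165 was chosen for its small p, and the share of all genes that separate within a sex was not counted. Within males 116 genes had an unadjusted p below 0.05 and within females 9, with 0 passing in either. Without the 3 mice that stand apart, all male, these counts were 12 in males and 14 in females. The result depended on few mice. The count of 36 was 84 without AD_veh 1, 74 without AD_veh 6, 56 without AD_UA 7 and 55 without AD_UA 2, and 22, 19 and 17 without AD_veh 2, AD_veh 5 and AD_UA 5. Without AD_veh 6, 11 genes passed (Arpc1b, C1qa, C1qb, C1qc, Ctss, Cyba, Fcer1g, Lcp1, Slco2b1, Srgn and Tyrobp), and Tyrobp was then at -1.02 in males and 1.49 in females (difference 2.51, SE 0.50, adjusted p = 0.0187). Without AD_veh 6 and the 3 mice that stand apart, 0 passed again, and the difference for Tyrobp was 1.90 (adjusted p = 0.670, 2 treated and 3 vehicle males, 3 and 3 females). Without the 3 mice alone 0 passed, 7 had an unadjusted p below 0.05, and the male medians were -0.21 for microglia and -0.28 for complement.

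**Figure D5:**
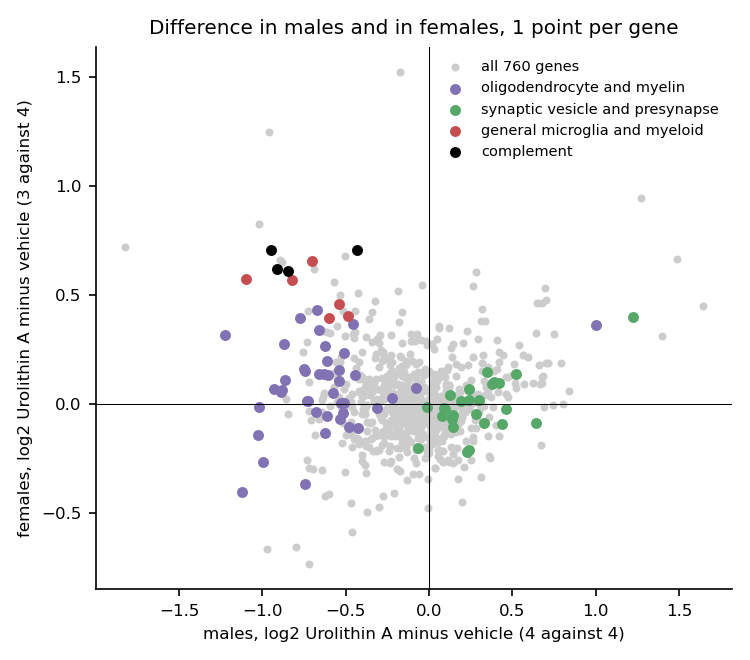
Log2 difference of Urolithin A minus vehicle in males (horizontal axis, 4 against 4 mice) and in females (vertical axis, 3 against 4), 1 point for each of the 760 genes. Genes of the general microglia and complement lists lie left of and above 0, myelin genes mostly left of 0 on both sides of the horizontal line, and presynaptic genes mostly right of 0 and near the horizontal line.

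The mouse genes of the amyloid and tau pathway had small differences. App ran at 13.70, 13.93 and 14.05 in the vehicle mice and 13.77, 13.89 and 14.09 in the treated mice, with a difference of 0.00 (SE 0.07, 95% interval -0.13 to 0.13). Mapt, the tau gene, was at -0.14 (SE 0.12, -0.14 without the 3 mice). The sources used here do not say whether these probes also bind the human transcripts. Aph1a, a subunit of the gamma-secretase that releases amyloid beta, was at -0.08 (0.00 without the 3), and Fyn, a kinase that acts on tau, at -0.11 (-0.13) with all 7 treated mice below the vehicle mean (lowest, median and highest 10.01, 10.395 and 10.50 with vehicle, 10.13, 10.22 and 10.33 with Urolithin A). Of 10 genes at Alzheimer risk loci 3 had a higher mean and 7 a lower one, with a median log2 difference of -0.11 (0.03 without the 3 mice), and 3 (30%) had an unadjusted p below 0.05, against 9.34% of the panel. These were Mef2c and Trem2, given above, and Bin1, a membrane-bending protein of endocytosis (-0.19, SE 0.09, -0.09 without the 3). Madd, a Rab3 regulator, was at 0.15 (SE 0.08, 0.06 without the 3). Of 11 protein kinase genes 7 had a higher mean and 4 a lower one, with a median log2 difference of 0.17 (0.08 without the 3). Their leading members were Mapk9, a stress-activated JNK kinase (0.23, 0.10), Pak1, a Rac effector of dendritic spines (0.33, 0.08), and Prkar1b, a neuronal regulatory subunit of protein kinase A (0.38, 0.09).

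Whether the differences were particular to 3xTgAD mice with both Polb copies was tested against the same comparison in PolB +/- mice (6 treated, 7 vehicle). The difference between the 2 effects passed the threshold in 0 of 760 genes (0%, limma, smallest adjusted p = 0.875), which does not show that the effects were alike. An unadjusted p below 0.05 was reached in 29 (3.82%), in 30 without the 3 mice and in 18 with each mouse's median subtracted. Glud1 had the smallest p, at -0.16 in 3xTgAD and 0.19 in PolB +/- mice (difference -0.35, adjusted p = 0.875). Rasal2, a GTPase-activating protein of Ras, was at 0.20 and -0.31 (adjusted p = 0.875), and Psmg1 at -0.17 and 0.09 (adjusted p = 0.875). Fam171a1, with the smallest p in 3xTgAD, was at -0.34 and 0.06 (difference -0.40, SE 0.13, adjusted p = 0.875). Wls was at 0.34 and 0.26, Wscd2 at -0.43 and -0.09, and Tor1a at -0.25 and -0.14. In PolB +/- mice the median over the members was 0.16 for presynapse (25 of 26 higher) and -0.14 for myelin (37 of 42 lower). Both lay on the same side of 0 as with all 15 3xTgAD mice. So did the medians for complement (-0.38, 4 of 4 lower), postsynapse (-0.23, 7 of 7 lower) and both microglial lists (-0.08 each, 5 of 6 lower). The median also kept its side in every other list of at least 4 genes, apart from those named next. It lay on the other side for oxidative phosphorylation (0.09, 9 of 10 higher, against -0.05 in 3xTgAD), proteasome and protein folding (0.07, 21 of 24 higher, against -0.05), mitochondrial dynamics and metabolism (0.14, 3 of 4 higher, against -0.11) and autophagy and mitophagy (0.03, 5 of 7 higher, against -0.06). The same held for amyloid and tau genes (0.04 against -0.08) and GABA-related genes (-0.06 against 0.22). It also held for endothelium, insulin signalling, lipid metabolism, small GTPases, vesicle traffic and extracellular matrix. Over the panel the PolB +/- median was -0.01, with 354 of 760 genes higher. No list was tested for a difference between the genotypes, and a treated mouse there, ADPolB_UA 6, was at 6.07 on Adora2a.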

How the data were processed

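Hippocampal RNA was measured on the NanoString nCounter platform with a mouse Alzheimer panel. The deposited table holds log2 values normalized by the authors, for 760 genes and 35 mice. The series text names the Rosalind platform. The sources used here do not give reference genes, background treatment or raw counts. Values were used as they stand, with no filter.

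Groups, sexes and replicate numbers came from the labels. Each gene was fitted with limma 3.58.1 (lmFit, contrasts.fit, eBayes, R 4.3.3) over all 35 mice with group and sex as terms. Sex differences used a mean for each group and sex. P-values were two-sided and Benjamini-Hochberg adjusted over 760 genes, with a threshold of 0.05. A fold is 2 to the power of the log2 difference. P-values set a difference against the spread between mice within the groups, which was estimated over all 35 mice. The fit was run on simulated data with independent genes and the same spread in all mice. Those data held no mice that stand apart, so the run does not cover that feature. At most 2.76% of genes were equal (within 0.005) in any of 105 pairs of the 15 mice.

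Members, lists, tests and the mice left out were chosen with earlier results of these data known. Of 46 gene lists, 31 had 4 or more measured members. No list was tested. Genes named were the 12 higher and 12 lower ones with the smallest p, the 5 largest differences each way, the 4 smallest p of each list described, the 3 smallest p for the sex and genotype differences, App, Mapt and Bcl2, and others where the text says so or in passing as list members. Some genes that the rule chose are not reported here. The mouse gene table of RefSeq held 750 of the symbols. The replicate numbers, shared by 7 treated and vehicle mice, were not taken as pairs: same-numbered deviations correlated at -0.40 to 0.68, over 0.1 in 3 of 7. Such correlations cannot show whether the numbers mark a shared litter, cage or batch. Alternatives were other scalings, a filter, sample weights, other terms and mice left out.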

Additional observations from a re-analysis of the deposited data

Results flagged for a closer look

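A mouse far from the others of its group was looked for in the genes and list means described above, 210 sets of 7 or 8 values, by Dixon's ratio of the gap to the range against its 95% critical value. Chance flags about 1 in 20 independent sets, and 21 flags were found, of which 18 were in AD_veh 2. The sets come from the same mice and include Adora2a and Pde1b, by which AD_veh 2 was set apart. Their count can therefore not be held against that share. The mouse AD_veh 2 was lowest of the 8 vehicle mice, with the next value after it, for Gabbr2 (8.32 against 9.85), Syngr1 (9.61 against 9.99), Snap91 (10.76 against 11.46), Dlgap1 (8.35 against 10.05), Ndufa5 (5.45 against 7.61), Pak1 (10.93 against 11.49) and Cachd1 (6.92 against 7.80). It was highest for Sox8 (10.70 against 9.80), Gabrd (10.31 against 8.47), Gphn (10.03 against 9.84), Abca2 (11.52 against 10.84), Pde1c (8.45 against 6.49), Adora2a (9.85 against 4.23) and Pde1b (11.27 against 8.53). Of the list means it was lowest for synaptic vesicle and presynapse (10.64 against 11.30), postsynapse (10.45 against 10.91) and proteasome and protein folding (8.91 against 9.12) and highest for autophagy and mitophagy (8.46 against 8.22). The part of tissue makeup in these values was not tested.

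Single values in other mice were Bcl2l1 in AD_UA 1 (9.20, the highest, against 9.02), Cox7a2l in AD_veh 8 (11.62, the highest, against 11.29), and the presynaptic list mean in AD_UA 8 (11.76, the highest, against 11.56). No difference between the sexes or the Polb genotypes passed the adjusted threshold with all mice.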

How the results depend on the processing

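Of the results with a threshold, only 2 settings moved a gene past it. With sample weights 2 genes passed for Urolithin A against vehicle, Fam171a1 and Wscd2 (limma adjusted p = 0.0273 each), and without AD_veh 6, 11 passed for the sex difference. The weights of the 35 mice ran from 0.107 in AD_veh 2 to 4.97 in the treated mouse AD_UA 2. Those of AD_UA 3 and AD_UA 8 were 0.385 and 0.446. With every other setting 0 passed. The replicate numbers were not taken as pairs, and with the replicate block 0 genes passed and 27 had an unadjusted p below 0.05 in place of 71. That count was 117 with sample weights, 47 with the 15 mice alone, 18 without AD_veh 2, AD_UA 3 and AD_UA 8 (29 with each mouse's median subtracted as well), 116 in males and 9 in females, and 32 to 108 with single mice left out. In males and females it was 12 and 14 without the 3 mice. For the sex difference the count was 7 without the 3 mice, against 36, and 17 to 84 with single mice left out, with 0 to 11 genes passing. For the Polb genotype difference it was 18 with each mouse's median subtracted, against 29. The cause of these changes was not tested.

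The log2 difference of a gene chosen by the naming rule changed sign as follows. Without the 3 mice it did for Apoe (0.044), Axl (0.075), Csf1 (0.26), Cyba (0.16), Fcer1g (0.17), Laptm5 (0.17), Slco2b1 (0.19), C1qc (0.23), C1qb (0.24), C1qa (0.28), Nfia (0.00692), Abca2 (0.00242), Npc2 (0.00509), Idh2 (0.072), Got1 (-0.016), Aph1a (0.00305), Tmem165 (0.032), Tyrobp (0.30), Arpc1b (0.27) and App (-0.012), and, outside that rule, for Ctss (0.25), Lcp1 (0.32), Sox9 (0.23) and Srgn (0.20). With sample weights it did for Apoe (0.21), Axl (0.25), Csf1 (0.31), Cyba (0.48), Fcer1g (0.47), Laptm5 (0.36), Slco2b1 (0.27), C1qc (0.55), C1qb (0.54), C1qa (0.61), Mlc1 (0.012), Atp6ap2 (-0.00829), Npc2 (0.13), Tfeb (0.11), Gabarapl1 (-0.028), Idh2 (0.089), Got1 (-0.043), Mfn1 (0.00892), Aph1a (0.12), Tmem165 (0.017), Tyrobp (0.66), Arpc1b (0.50) and App (-0.013). With the myelin list mean as a covariate it did for Csf1 (0.054), Fcer1g (0.050), Laptm5 (0.071), Slco2b1 (0.065), C1qc (0.057), C1qb (0.098), C1qa (0.11), Nfia (0.00437), Aph1a (0.019), Tyrobp (0.12) and Arpc1b (0.088). With the replicate block it did for Serping1 (-0.047) and App (-0.00571), with quantile normalization for Gabarapl1 (-0.012), Got1 (-0.016) and Tmem165 (0.024), with median centring for Tmem165 (0.019), and for App with the 15 mice alone (-0.00250) and with no sex term (-0.00143). With single mice left out, the range crossed 0 for App (-0.032 to 0.029), Arpc1b (-0.31 to 0.013), C1qa (-0.34 to 0.068), C1qb (-0.31 to 0.060), C1qc (-0.34 to 0.023), Fcer1g (-0.31 to 0.059), Laptm5 (-0.24 to 0.048), Serping1 (-0.11 to 0.34), Slco2b1 (-0.17 to 0.075), Tmem165 (-0.077 to 0.00387) and Tyrobp (-0.33 to 0.092). These genes all lay far from the threshold with all mice. The depth behind each value is unknown, and 5 to 8 mice a group limit what could be detected.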

Other observations

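Among the 18 genes with an unadjusted p below 0.05 without AD_veh 2, AD_UA 3 and AD_UA 8, 10 were not among the 71 genes found, with the same sign, with all mice. The largest difference was that of Cd74, the invariant chain of MHC class II, at 1.26 (SE 0.54) against 0.64 with all mice. Its values without them were from 5.55 to 7.84 in 7 vehicle mice and from 6.78 to 9.13 in 5 treated mice. Antxr1, a collagen-binding receptor, was at 0.64 (0.43 with all mice), Utrn, utrophin, at 0.38 (0.37), and Aldh7a1, an aldehyde dehydrogenase of lysine breakdown, at 0.29 (0.18). Cacng8, an auxiliary protein of AMPA receptors, was at -0.37 (-0.38). Tollip, an adaptor of autophagy and Toll-like receptor signalling, was at -0.13 (-0.05). These genes were chosen after their values were seen, and none passed the threshold.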
